A study of Homo sapiens with 2 samples.

Results

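The YAP target genes CTGF, CYR61, ANKRD1, AMOTL1, AMOTL2, AXL, F3, NT5E, FJX1 and LATS2 were examined in Ca9-22 cells, an established oral squamous cell carcinoma (OSCC) cell line. Members were all non-control probes whose gene name in the array files was one of these 10 names, which gave 12 of 58201 probes and 10 of 43317 gene names. Cells infected with a lentivirus carrying the full-length cDNA of DLEU1, a long noncoding RNA, were compared with cells infected with the empty lentivirus, which served as the control vector. Both populations were selected with blasticidin, and total RNA from each was labeled with Cy3 and hybridized to 1 Agilent 1-color array. There were 2 groups with 1 array each, so no difference below has a replicate check, a test or a p-value, and how precise any value can be is set by this number of arrays. The sources used here did not say whether the selected cells were pools or clones, and they gave no cell density at harvest.

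YAP (YAP1) and TAZ (WWTR1) are transcriptional co-activators that bind DNA through TEAD factors. In sparse or spread cells they are nuclear and switch on genes for matricellular proteins, receptors and growth regulators. At high cell density the kinases LATS1 and LATS2, the core of the Hippo pathway, phosphorylate them, which keeps them in the cytoplasm. LATS2, AMOTL1 and AMOTL2 are targets that restrain YAP in turn, and squamous carcinomas often have high YAP and TAZ activity.

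Of the 10 members, 9 were well above background on both arrays (11 of the 12 probes), and 5 of these 9 were at least 2-fold lower with the DLEU1 vector. They were the secreted matricellular protein CYR61, the receptor tyrosine kinase AXL, the coagulation initiator F3, the ecto-nucleotidase NT5E and the secreted protein FJX1. Over all 20246 gene names tested, 9.78% were at least 2-fold lower and 9.18% were at least 2-fold higher. No member (0 of 9) was at least 2-fold higher. Counted by probe, 6 of the 11 detected member probes were at least 2-fold lower and 0 higher, where 9.78% and 8.98% of all 26279 tested probes were (2571 lower and 2360 higher, or 6349 and 1152 with spike-in scaling). The remaining 4, CTGF, AMOTL1, AMOTL2 and LATS2, had log2 differences (DLEU1 vector minus control vector) from -0.16 to 0.97. The median difference of the 9 members was -1.44, beside -0.07 over all gene names tested. The members and the lists below were chosen with earlier results of these data known, so such comparisons are not an independent check. Of the 9, 8 lay below 0, as did 10968 of all 20246 gene names. Among these 8, CTGF, AMOTL2 and LATS2 lay close to 0, from -0.16 to -0.04. In RNA from whole cultures, fewer cells that express a gene and less of its RNA per cell cannot be told apart.

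The stretches of DNA before the transcription start of the members are shown because TEAD factors, and AP-1 factors that bind beside them, recognize short motifs. RefSeq windows of 250 bases upstream of the start (GRCh38.p14) were found for 9 members, with 11 windows, since AMOTL2 and AXL each had 2 start sites. CYR61 had no window in the table. The TEAD core CATTCC and the AP-1 motif TGANTCA were searched on both strands, so that a core on the other strand reads GGAATG. The windows of CTGF and ANKRD1, the later start of AXL and the single start of F3 are printed 5′ to 3′ on the strand of the gene, with both motifs in capitals. The first is chr6:131951373-131951622 (minus strand), the next chr10:90921088-90921337 (minus), the AXL window chr19:41226505-41226754 (plus) and the F3 window chr1:94541760-94542009 (minus).
CTGF: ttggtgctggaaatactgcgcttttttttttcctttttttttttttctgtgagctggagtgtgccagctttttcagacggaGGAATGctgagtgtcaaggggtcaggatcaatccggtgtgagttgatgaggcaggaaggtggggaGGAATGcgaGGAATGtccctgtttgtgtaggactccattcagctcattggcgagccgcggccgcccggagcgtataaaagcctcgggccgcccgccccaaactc
ANKRD1: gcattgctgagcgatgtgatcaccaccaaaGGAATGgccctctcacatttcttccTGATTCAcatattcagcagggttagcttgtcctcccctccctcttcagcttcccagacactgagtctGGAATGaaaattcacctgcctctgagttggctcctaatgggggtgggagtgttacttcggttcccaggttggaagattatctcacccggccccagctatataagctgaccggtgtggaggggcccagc
AXL: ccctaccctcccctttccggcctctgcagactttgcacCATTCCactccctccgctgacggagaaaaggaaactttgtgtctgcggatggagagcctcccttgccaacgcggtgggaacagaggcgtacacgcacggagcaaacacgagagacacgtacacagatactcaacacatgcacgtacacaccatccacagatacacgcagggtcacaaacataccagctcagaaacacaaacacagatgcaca
F3: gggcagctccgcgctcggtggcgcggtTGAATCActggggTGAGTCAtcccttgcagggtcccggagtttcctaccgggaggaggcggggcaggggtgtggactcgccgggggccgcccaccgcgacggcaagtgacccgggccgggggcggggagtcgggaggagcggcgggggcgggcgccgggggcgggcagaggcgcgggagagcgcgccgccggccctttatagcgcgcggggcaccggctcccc

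CTGF had 3 TEAD cores, which began 169, 104 and 95 bases before the start. ANKRD1 had cores 220 and 128 bases before the start and an AP-1 motif at 195. The later start of AXL had 1 core at 212 bases, and the later start of AMOTL2 had 1 at 69 bases. F3 had AP-1 motifs at 223 and 210 bases and no TEAD core. The windows of NT5E, FJX1, LATS2 and AMOTL1 held neither motif. In all, 4 of the 11 windows held a TEAD core and 2 held an AP-1 motif, and AXL and AMOTL2 each had the core at only 1 of their 2 starts. Of all 35116 windows of this length, 11.9% held a TEAD core, 6.57% held an AP-1 motif and 0.0826% held 3 or more TEAD cores. Of the 4 members with a core in some window, AXL was at least 2-fold lower, CTGF and AMOTL2 were not and ANKRD1 was not well above background. These matches describe the letters in the windows and not binding.

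The vector itself was read from DLEU1, whose probe on transcript NR_002605 gave a signal of 14156 in cells carrying it and 2178 in control cells, or 6.67-fold higher. Its other probes, on another DLEU1 transcript, were 1.46-fold and 1.81-fold higher. Processed signals are given in scanner units, and log2 levels are relative to the 75th percentile of each array. Each member probe had a single spot per array. Among 273 other probes with 10 spots each, the SD of the log2 difference between the arrays for a spot was 0.0756. The error model of the scanner software gave the differences of the detected member probes errors from 0.20 to 0.26. Neither value includes the variation between cultures. Probe positions are on hg19, taken from the files, and exons and UTRs on that build were not analysed here.

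Among the matricellular proteins, CYR61 (CCN1) was past 2-fold lower with the DLEU1 vector while CTGF (CCN2) was not. Both are secreted ligands of integrins and are among the most used readouts of YAP activity. The CYR61 probe (chr1:86048953-86049012, plus strand) had a signal of 17459 in control cells and 5861 in DLEU1 cells. These are log2 levels of 6.17 and 4.63, a difference of -1.54 or 2.90-fold lower, and 3.52% of all tested probes had a difference as low or lower. The CTGF probe (chr6:132270130-132270189, minus strand) gave 46.0 and 40.0, well above background on both arrays but low. Whether the low signal of this probe limited the size of its decrease was not tested. Its levels were -2.40 and -2.56, and the difference of -0.16 was smaller than its software error of 0.26.

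**Figure D1:**
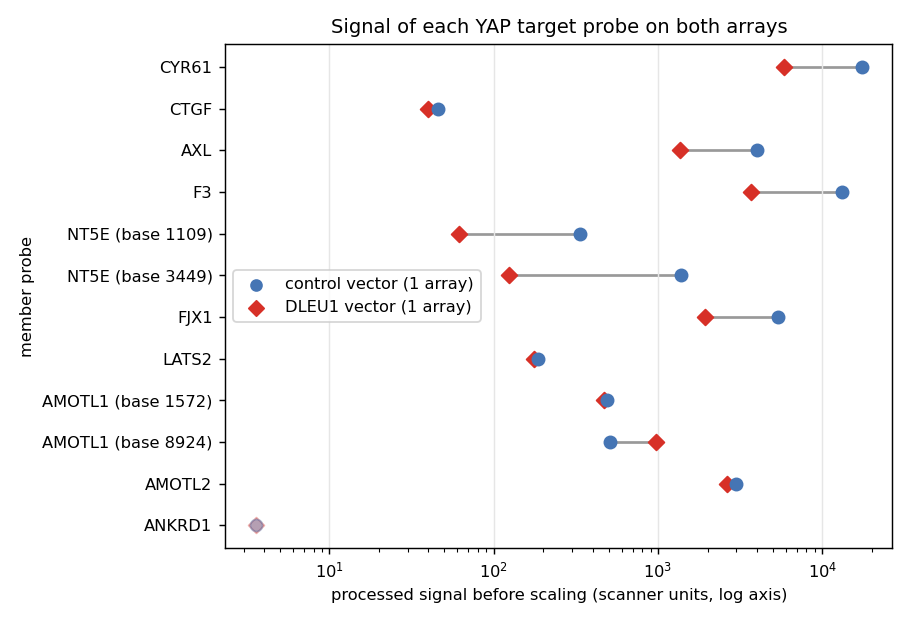
Processed signal of each of the 12 member probes before scaling (horizontal log axis, scanner units) on the control vector array (blue circles) and the DLEU1 vector array (red diamonds), 1 array each and no error bars. The lines of CYR61, AXL, F3, FJX1 and both NT5E probes run to lower signal with the DLEU1 vector, while 1 AMOTL1 probe runs the other way, and ANKRD1 (faded) was not well above background. Compare signals within a row only.

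AXL, which binds the ligand GAS6 and promotes survival and invasion, gave 3984 in control cells and 1368 in DLEU1 cells (chr19:41767395-41767454, plus strand). Its level went from 4.04 to 2.53, a difference of -1.50 or 2.84-fold lower. F3 (tissue factor), the cell surface receptor for coagulation factor VII, gave 13127 and 3677 (chr1:94995080-94995139, minus strand). Its level went from 5.76 to 3.96, a difference of -1.80 or 3.48-fold lower, and 2.43% of tested probes were as low or lower. Both genes were lower by more than the software error of 0.20.

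NT5E (CD73), the enzyme that forms adenosine from AMP outside the cell, had the largest difference of the 9 members detected. The probe at base 3449 of its transcript (chr6:86204891-86204950, plus strand) gave 1389 in control cells and 124 in DLEU1 cells. That was a log2 difference of -3.45 or 10.9-fold lower, with 0.148% of tested probes as low or lower. This spot lay at the edge of a strip of the DLEU1 vector array, columns 35 to 42 and rows up to 120, in which 33.0% of lit spots were at least 2-fold lower, compared with 12.7% outside it. The strip was located by this same share of lower spots, so the contrast is part of its definition. Margin columns were then added on both sides, and this spot lay in such a margin, at column 35. The other NT5E probe, at base 1109 and on genomic positions that span 4014 bases (chr6:86176992-86181005), lay outside the strip and gave 335 and 61.6. Its difference was -2.41 or 5.30-fold lower, so that both probes were past 2-fold and the size differed between them.

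FJX1, the human counterpart of the Drosophila kinase four-jointed that acts on the Fat and Dachsous cadherins, gave 5365 in control cells and 1925 in DLEU1 cells (chr11:35642109-35642168, plus strand). Its level went from 4.47 to 3.03, a difference of -1.44 or 2.71-fold lower. This was the smallest of the 5 decreases past 2-fold, and 4.19% of tested probes were as low or lower.

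Of the members that feed back on YAP, none was past 2-fold. LATS2, the kinase, gave 186 and 177 (chr13:21547929-21547988, minus strand), a difference of -0.04 with an error of 0.21. AMOTL2, an angiomotin that holds YAP at junctions, gave 2978 and 2630 (chr3:134074742-134074801, minus strand), a difference of -0.14 with an error of 0.20. Both differences lay within the software error.

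AMOTL1, the other angiomotin among the members, had probes that disagreed. The probe at base 8924 (chr11:94609844-94609903, plus strand) gave 513 in control cells and 977 in DLEU1 cells, a difference of 0.97 or 1.96-fold higher and so just under the threshold. The probe at base 1572 (chr11:94554977-94563264, spanning 8288 bases of genome) gave 486 and 471, a difference of -0.01. The brighter probe gave the value of the gene by rule, and AMOTL1 therefore has no single direction in these data.

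ANKRD1, a nuclear ankyrin repeat protein and a strong YAP target in many cells, was not well above background on either array, with signals of 3.58 and 3.55 (chr10:92672562-92672621, minus strand). No fold is given for it.

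**Figure D2:**
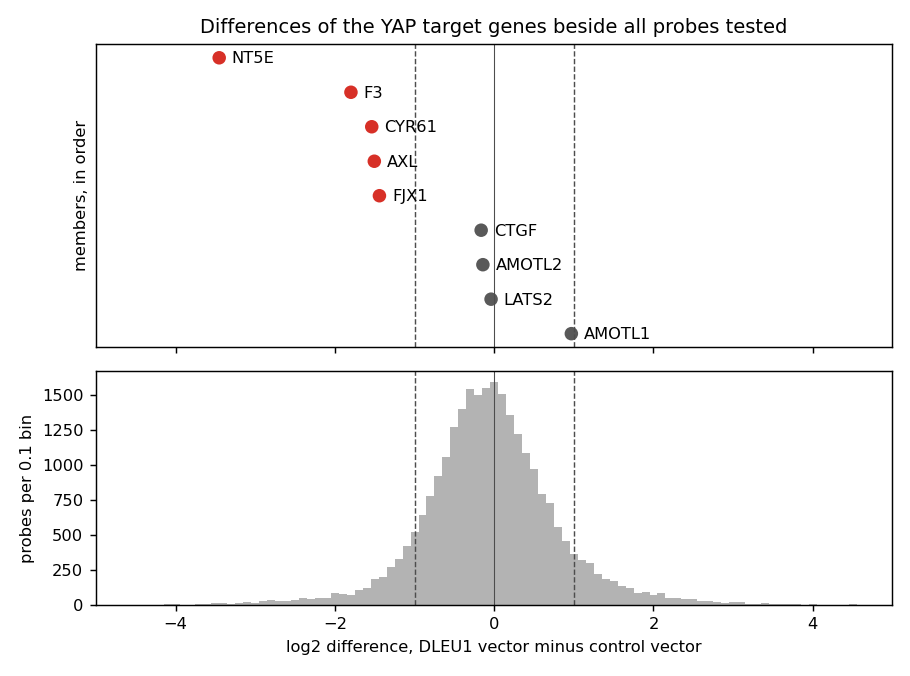
Log2 difference, DLEU1 vector minus control vector, of the 9 detected members in order (upper panel, red where at least 2-fold lower) above the histogram of all 26279 tested probes in bins 0.1 wide (lower panel). Dashed lines mark 2-fold, and the 5 members left of it lie between -3.45 and -1.44 in the lower tail of the histogram, while the other 4 lie between -0.16 and 0.97.

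The 5 decreases stayed past 2-fold under all 15 alternatives of scaling, background correction, filtering and probe choice. Their ranges over these were -2.00 to -1.28 for CYR61, -1.97 to -1.33 for AXL, -2.26 to -1.55 for F3, -3.91 to -2.41 for NT5E and -1.90 to -1.24 for FJX1. CYR61, AXL, F3, FJX1, CTGF, AMOTL2 and LATS2 each had a single probe, outside the strip. Filters, probe choice and removal of the strip therefore could not change their values, and only scaling and background correction could. CTGF stayed below 0 in all 14 in which it was measured, from -0.63 to -0.02. AMOTL1 passed 2-fold upward under 3, with 1.08 when the 75th percentile was taken over detected probes only, 1.03 with quantile normalization and 1.06 with loess. AMOTL2 ranged from -0.60 to 0.05 and LATS2 from -0.50 to 0.07, so that neither had a fixed direction.

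**Figure D3:**
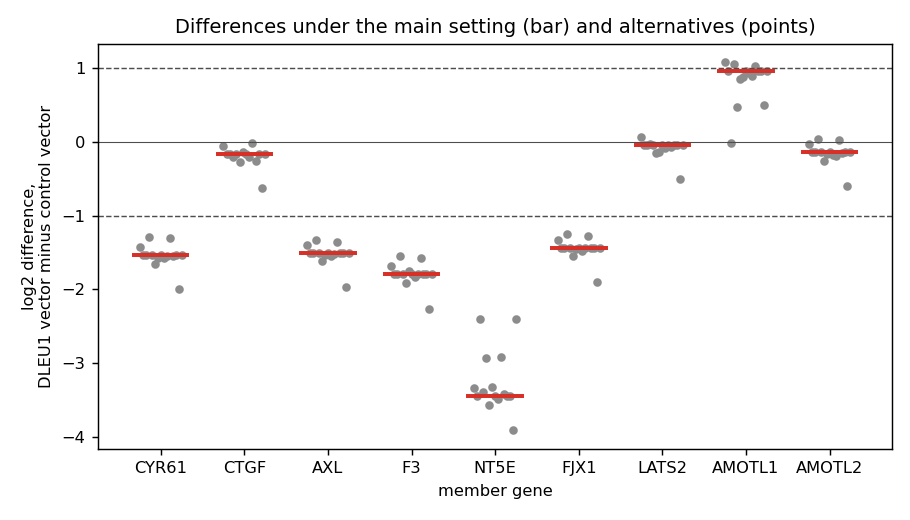
Log2 difference, DLEU1 vector minus control vector (vertical axis), of each detected member under the setting reported (red bar) and under the alternatives (gray points), with dashed lines at 2-fold. All points of CYR61, AXL, F3, NT5E and FJX1 lie below the lower dashed line, and those of AMOTL1 spread from -0.01 to 1.08.

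The co-activators and the factors that bring them to DNA differed among themselves. YAP1 gave 2497 and 3019 over the 9 spots used on each array, a difference of 0.31. WWTR1, which encodes TAZ, gave 668 and 207, a difference of -1.66. The gene named TAZ in the files is tafazzin and was not used. TEAD4 gave 615 and 248 (-1.27), TEAD1 gave 2407 and 1148 (-1.03), TEAD3 gave 622 and 1043 (0.78) and TEAD2 gave 74.7 and 84.7 (0.22). VGLL4, which competes with YAP for TEAD factors, gave 1011 and 2243, a difference of 1.19, and a further probe gave 1.26. Of the 8 genes of this list detected on both arrays, 3 were at least 2-fold lower and 1 was at least 2-fold higher. The median was 0.0062. Over 8 other scalings and background corrections WWTR1 and TEAD4 were past 2-fold in all 8, VGLL4 in 7 and TEAD1 in 4. VGLL3 had probes that disagreed, at -0.21 and 1.42, and VGLL1 and VGLL2 were not well above background on either array.

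The Hippo kinases and scaffolds lay close to 0. Of 10 genes, all detected, 6 were lower and 4 higher, 0 passed 2-fold in either direction, and the median was -0.07. They ran from MAP4K4 at -0.53, whose probe lay in the strip, to MOB1B at 0.43, and LATS1 was at -0.28. Over the alternatives the median lay between -0.53 and 0.059.

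Among the junction and membrane proteins that act upstream, 16 of 18 genes were detected on both arrays and none was past 2-fold downward (0 of 16), while 2 were past it upward. These were FRMD6, an upstream activator of the pathway, with 1115 and 2961 (1.45), and the epithelial cadherin CDH1, with 4604 and 9218 (1.04). FRMD6 was past 2-fold in 7 and CDH1 in 6 of the 8 other scalings and background corrections. With spike-in scaling NF2 (-1.21) and WWC1 (-1.14) passed 2-fold downward. NF2 (merlin) was lowest, with a difference of -0.75 from its brightest probe and -1.08 from another. AMOT and DCHS1 were not well above background on either array, and the median of the list was -0.12.

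Other genes of published YAP and TAZ signatures were mixed. Of 13, 9 were detected on both arrays, 2 were at least 2-fold lower and 1 was at least 2-fold higher, with a median of -0.38. The transcription factor FOXF2 gave 833 and 80.5 (-3.33), but its probe lay in the strip, and without the strip the median of the list was 0.025. DOCK5, an exchange factor for Rac, gave 74.2 and 33.2 (-1.12), and was below 2-fold with normexp background correction (-0.45). A further DOCK5 probe gave 130 and 15.9, but was not well above background with the DLEU1 vector. The secreted protein CCDC80 gave 274 and 1016 (1.93), the opposite direction.

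Actin genes and other targets of SRF and MRTF, which also respond to cell spreading, had a median of -0.10 over 16 genes detected of 16. None of the 16 was at least 2-fold lower (0), the lowest being ACTA2 at -0.93, and 1 was at least 2-fold higher, TPM1, with 3071 and 6869 (1.20). TPM1 was past 2-fold in 7 of the 8 other scalings and background corrections. Of genes not called, ACTA2 passed 2-fold downward in 2 of these 8, VCL did so in 1 and TAGLN passed it upward in 1. Of the other 4 CCN family genes, NOV (CCN3) gave 246 and 91.1 (-1.39, or -0.97 with normexp and so short of 2-fold) and WISP2 (CCN5) gave 291 and 1980 (2.80), the latter from a probe in the strip. WISP1 and WISP3 were not well above background.

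Partners of the members went both ways. Of 15 genes, 9 were detected on both arrays, with a median of 0.046. The adenosine receptor ADORA2B, which binds the product of NT5E, gave 3305 and 1488 (-1.11). It was past 2-fold in 6 of the 8 other scalings and background corrections, and smallest with loess (-0.95). PROS1, a ligand of receptors related to AXL, gave 156 and 723 (2.25), whereas GAS6, the ligand of AXL, gave 247 and 252 (0.07).

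**Figure D4:**
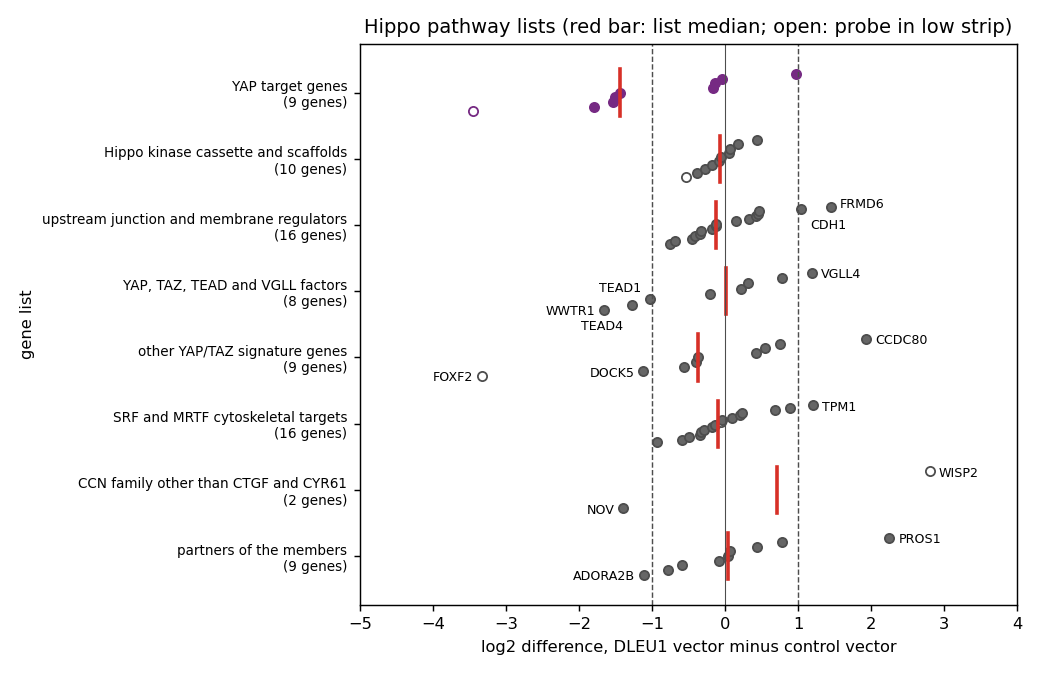
Log2 difference, DLEU1 vector minus control vector (horizontal axis), of each gene detected on both arrays, by list. Purple points are the YAP target genes, red bars are list medians, open points are genes whose probe lay in the strip, dashed lines mark 2-fold and genes of the other lists past it are named. The median of the YAP target genes is -1.44, while those of the Hippo kinases and of the SRF and MRTF targets are -0.07 and -0.10.

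Markers of cell types were read beside these values. All 7 epithelial and squamous markers were detected on both arrays, and their signals summed to 82125 in control cells and 194508 in DLEU1 cells. KRT14 (2.85), KRT5 (2.10) and CDH1 (1.04) were at least 2-fold higher, while KRT18 was at -0.93 and EPCAM at -0.78. The higher sum rests on KRT5 (28686 and 119985) and KRT14 (5698 and 39953). Of 7 mesenchymal markers 3 were detected on both arrays, with summed signals of 945 and 5525. COL1A1 gave 337 and 5217 (3.99) and VIM gave 587 and 292 (-0.97). The median difference of the 3 was -0.33, so the higher sum rests on COL1A1 alone. LUM was well above background with the DLEU1 vector only, and COL1A2, COL3A1 and DCN on neither array. Of 4 endothelial markers 2 were detected, with summed signals of 103 and 645. VWF gave 48.1 and 609 (3.70) from its brightest probe, but another VWF probe detected on both arrays gave 33.7 and 31.2 (-0.07), and CDH5 was at -0.59, so the higher sum rests on 1 probe. Of the leukocyte markers, CD14 gave 62.1 and 20.0 (-1.60, or -0.56 with normexp) and PTPRC was at 0.45, and CD3E was not well above background on either array. The part of these shifts in the lower signal of the YAP target genes was not tested, nor was that of cell density.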

How the data were processed

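RNA from 2 cell populations was measured on SurePrint G3 Human GE v3 arrays. The deposited intensity values were made by the authors with Agilent Feature Extraction 10.7.3.1. Per the file headers this software subtracted background and detrended each array. The authors' series table held the same intensity, rounded, and neither was normalized between arrays.

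Control spots were left out, except in spike-in scaling. Spots marked as outliers (84 and 103) were left out unless every spot of their probe was so marked, and 0 were saturated. The deposited signal was averaged over the spots of a probe on the log2 scale and reduced by the 75th percentile of its array (7.92 with the control vector, 7.88 with the DLEU1 vector). A probe was detected where most spots were well above background (47.6% and 48.1%). The brightest such probe stood for a gene, and differences were called at 2-fold.

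All members were named, and of each list its genes past 2-fold, its extremes, YAP1, WWTR1, TEAD1 to TEAD4, LATS1, NF2, AMOT and GAS6. Another marker gene is not reported here. Members and lists were chosen with earlier results of these data known. Alternatives covered scaling, background, filters, probe choice, the strip and the threshold. Python 3.11.15, statsmodels 0.14.6 (loess, span 0.3), R 4.3.3 and limma 3.58.1 (normexp, offset 50) were used, and the code was tested on simulated data.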

Additional observations from a re-analysis of the deposited data

How the results depend on the processing

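With 1 array per group no replicate could be left out. No paired analysis was possible because the labels give no replicate numbers and each group holds 1 array. Alternatives gave 134 values of single members, of which 85 stayed within the spot SD, 49 did not and 0 of those past 2-fold changed sign. The 85 include values that a filter, probe choice or removal of the strip could not change. ANKRD1 had a value only without the filter on dim probes, and CTGF had none at a signal of at least 100. Spike-in scaling moved the median of all tested probes by -0.46, median scaling by -0.11 and the detected-probe 75th percentile by 0.11, and member values follow these shifts. Values below are medians of log2 differences unless named as counts, and each of the other 7 lists changed sign between settings. The cause was not tested.

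The counts of probes, 2571 lower and 2360 higher as reported, were 5832 and 4772 at 1.5-fold, 855 and 958 at 3-fold, 5008 and 5537 with no filter on dim probes, and 6349 and 1152 with spike-in scaling. Probes higher numbered 1329 with normexp and 1226 at a signal of at least 100. The members lower numbered 2 at 3-fold (F3 and NT5E), and 1 member, AMOTL1, was higher at 1.5-fold, with the detected-probe 75th percentile, with loess and with quantile normalization. The median of the members was -1.33 with the detected-probe 75th percentile, -1.24 with loess, -1.55 with median scaling, -1.27 with quantile normalization, -1.90 with spike-in scaling, and -0.80 with no filter, which brings in ANKRD1.

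Scaling by the detected-probe 75th percentile gave 0.040 for the Hippo kinases, -0.013 for the upstream regulators, 0.12 for the factors, -0.27 for the other signature genes, 0.013 for the SRF targets, 0.82 for the CCN family and 0.16 for the partners. In the same order, median scaling gave -0.19, -0.24, -0.11, -0.49, -0.21, 0.59 and -0.067, and spike-in scaling gave -0.53, -0.59, -0.46, -0.84, -0.56, 0.24 and -0.42. Loess gave 0.059 for the Hippo kinases, 0.082 for the upstream regulators, -0.19 for the signature genes and 0.072 for the SRF targets, and quantile normalization gave 0.036, 0.054, -0.20 and 0.040 for these and -0.054 for the partners. Averaging the detected probes of each gene gave -0.16 for the Hippo kinases, 0.27 for the factors and -0.23 for the signature genes. The dimmest detected probe, an alternative added after seeing the data, gave -0.18, 0.27 and 0.12 for these and -0.22 for the SRF targets. Taking off the nearest 100 spots gave -0.036 for the upstream regulators, -0.072 for the factors, -0.22 for the signature genes and 0.79 for the CCN family. With no filter the factors were at 0.13, the signature genes at -0.26 and the CCN family at 0.087, and at a signal of at least 100 they were at -0.21, 0.43 and 2.80. Without the strip the signature genes were at 0.025 and the CCN family at -1.39. The CCN family had only 2 genes detected on both arrays, so its 2.80 is WISP2 alone and its -1.39 is NOV alone.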

Other observations

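The arrays also carried 9 probes for antisense and intergenic RNAs named after the members or WWTR1, chosen after the main values were seen. Of these 1 was detected, WWTR1-AS1, antisense to the gene that encodes TAZ. It had log2 levels of -2.49 in control cells and -3.46 in DLEU1 cells, which differ by -0.97. The probes named after CYR61, NT5E, ANKRD1 and AMOTL2 were not well above background on either array, so they give no value beside those genes.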
